A study of Caenorhabditis elegans with 4 samples.

Results

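The mitochondrial respiratory chain and the ATP synthase are built from many nuclear-encoded subunits, and 45 genes for such subunits of complexes I to V and for cytochrome c were followed here. They were listed by function, with earlier results of these data known, and found as rows whose sequence id equals that of a listed gene or that id plus 1 lower-case isoform letter, and all 45 were present among the 19380 named genes on the arrays. They are represented by 56 of the 23181 transcripts, since 8 of the genes have several transcripts and 37 have 1. The study hybridised Cy3-labelled total RNA of early Caenorhabditis elegans embryos to 4 single-colour NimbleGen arrays. The embryos were obtained by bleaching gravid adults from liquid culture. All 4 arrays belong to 1 group of PFR40 embryos, a strain with the tm1489 allele of hpl-2, which encodes a homolog of heterochromatin protein 1. No other group was available for comparison, because the wild-type arrays that the design text names were not analysed here. No effect of the mutation can thus be read from these values. The protocol for growing the animals speaks of N2, the wild-type strain, while the genotype labels say mutant, and this conflict was not settled here. The labels describe the source as hermaphrodites with a small share of males, and nothing in them tells whether replicates are separate cultures. All p-values rest on the spread of these samples alone, which may be technical.

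The chain oxidises NADH at complex I and succinate at complex II, and passes the electrons through coenzyme Q to complex III. Cytochrome c then carries them to complex IV, where oxygen is reduced. Complexes I, III and IV pump protons across the inner mitochondrial membrane, and complex V, the ATP synthase, makes ATP as the protons flow back. Early embryos of this animal inherit their mitochondria and much of their messenger RNA from the oocyte. In C. elegans, mutations in several of these subunits, such as isp-1, nuo-6 and mev-1, are known for their effects on lifespan and oxidative stress. A few subunits are encoded by more than 1 gene, and some of these copies differ in the tissue that uses them.

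The arrays were alike over all transcripts, with Pearson's r of 0.981 to 0.996 on the log2 scale between pairs of arrays, across transcripts, which are not independent replicates. Median signals lay between 576 and 591, and single values between 101 and 50520. Background is defined in the next paragraph, and of all transcripts 55.1% were above it and 36.2% below it. The 3 transcripts of hpl-2 were above background, with mean signals of 2477 ± 77.8, 1521 ± 78.1 and 1450 ± 65.5 (SD, n = 4). The position of their probes relative to the tm1489 deletion is unknown here, so the genotype is not checked by them. Array 1 stood apart from the other arrays in markers of several tissues. Muscle markers, with 27 of 29 transcripts above background, had a median log2 deviation from their 4-array means of 0.85 on array 1. On arrays 2, 3 and 4 it was -0.64, 0.040 and -0.29, so these arrays also differed from each other. Many of the 29 are transcripts of unc-89 or lev-11. By transcript, the deviation on array 1 ran from 0.022 (act-4) to 1.57 (unc-15). Muscle signals per gene summed to 136565 on array 1 and to 99999 to 108603 on the others. Bright genes weigh most in such sums. Meiosis markers, with 12 of 12 above background, deviated by -0.34 on array 1, with sums of 67644 there and 84852 to 87612 on the others. Oocyte and eggshell markers, with 8 of 10 above background, also deviated by -0.34, with sums of 82479 and 113021 to 124110. Sperm markers, with 8 of 12 above, deviated by -0.46, with sums of 6566 and 9144 to 12461. Early zygotic markers, which the labelled stage should express, had 9 of 11 above background, and med-1 and med-2 were not told apart from it. They deviated by -0.23 on array 1, where 90.9% of them were lowest, with sums of 46486 there and 51126 to 55624 on the others. All 8 transcripts of the vitellogenins, yolk proteins of the adult intestine, were below background, with sums of 1391 to 1423. Counts above background, the median SD over the members, shares of lowest values and differences between gene copies are also given without array 1. SDs of single transcripts, SDs by level of signal and marker values are given with all 4 arrays only. With 4 arrays, their number limits the precision.

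Nearly all subunits of the respiratory chain and the ATP synthase gave signal above background. Background was set on each array at the 95th percentile of log2 signal among chemoreceptor genes, a large family of receptors used mainly by sensory neurons. SDs given with values above background therefore also hold the differences of the background between arrays. Of the 56 member transcripts, 55 were above background and 1 was below it (limma, Benjamini-Hochberg adjusted p under 0.05), against 55.1% above and 36.2% below among all transcripts. By gene, 44 of 45 had a transcript above background, against 51.9% of all named genes. The members above background lay 1.54 to 7.10 above it on the log2 scale, with a median of 5.56. The exception was cyc-2.2, the second gene for cytochrome c. The counts of 55 transcripts and 44 genes were the same without array 1. With the 99th percentile as background 55 members were above, against 47.0% of all transcripts. All 56 were above with the 75th percentile, against 72.6% of all, and with the 25th percentile of all transcripts, against 68.9% of all. In such whole-embryo RNA, fewer cells of a type and less RNA per cell cannot be told apart.

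**Figure D1:**
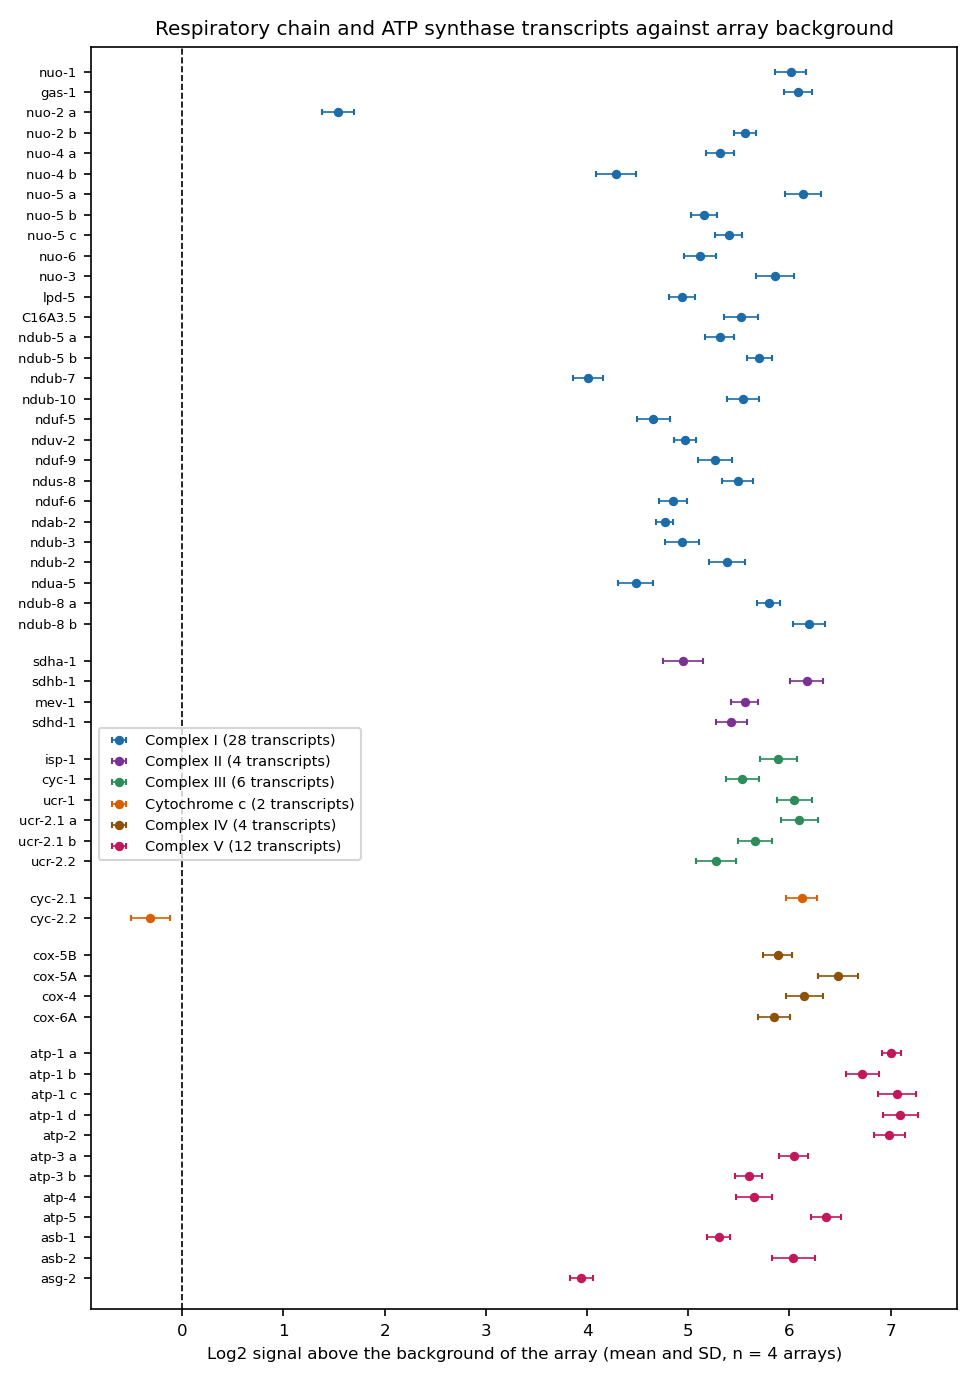
Log2 signal above the background of the array (x axis) for the 56 member transcripts, grouped by complex, with the letter of the transcript where a gene has several. Points are means and bars SDs of 4 arrays, and the bars also hold differences of the background between arrays. The dashed line is the background. Only cyc-2.2 lies left of the line, at -0.32, and the points of the other 55 transcripts lie between 1.54 and 7.10.

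Complex I, the NADH dehydrogenase, was represented by 22 genes with 28 transcripts, and all 28 were above background. The flavoprotein gene nuo-1 (C09H10.3), whose product binds NADH, had signals of 20296, 21143, 20208 and 20800 on arrays 1 to 4. These signals were nearly level, and nuo-1 lay 6.01 ± 0.16 log2 above background (SD, n = 4, limma adjusted p = 3.22e-10). The core subunit gene gas-1 (K09A9.5) had signals of 19068, 20951, 23279 and 23824. Its lowest value was on array 1 and its highest on array 4, a 1.25-fold range, and it lay 6.09 ± 0.14 above background (SD, n = 4, limma adjusted p = 3.22e-10). The core subunit gene nuo-5 (Y45G12B.1) had 3 transcripts, at 6.14, 5.16 and 5.40 log2 above background. The core subunit genes nduv-2 and ndus-8 lay 4.97 and 5.49 above background.

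The remaining complex I genes encode mostly accessory subunits, which surround the core. Among them nuo-6, nuo-3 and lpd-5 lay 5.12, 5.86 and 4.94 log2 above background. The acyl carrier protein gene ndab-2 (F37C12.3) had signals of 7964, 8869, 8494 and 9544 on arrays 1 to 4. It was lowest on array 1 and highest on array 4, with an SD of 0.11 on the log2 scale. The gene nuo-4 had transcripts at 5.31 and 4.29 and ndub-5 at 5.31 and 5.70 log2 above background. Transcript b of ndub-8 lay 6.19 above it, and transcript a had signals of 16597 to 18394. The genes C16A3.5, ndub-10, nduf-9 and ndub-3 lay 5.52, 5.55, 5.26 and 4.94 above it, and nduf-6, nduf-5, ndua-5 and ndub-7 lay 4.85, 4.66, 4.48 and 4.01 above it. These genes include small subunits of the membrane arm and of the arm that reaches into the matrix. Among the accessory genes, ndub-2 varied by an SD of 0.026 around signals of 13068 to 13555. Over the whole complex the SDs of the log2 signal ran from 0.026 to 0.17, with a median of 0.058.

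The core subunit gene nuo-2 had transcripts whose signals varied differently between arrays. Transcript T10E9.7a had signals of 830, 1095, 925 and 881 on arrays 1 to 4. It was highest on array 2 and lowest on array 1, a 1.32-fold range, and it lay 1.54 ± 0.16 log2 above background (SD, n = 4, limma adjusted p = 7.59e-07). Transcript T10E9.7b had signals of 13798, 16008, 15186 and 15357, with the same lowest and highest arrays and a 1.16-fold range. The deviation on array 2 was 0.24 for the a transcript and 0.088 for the b transcript. The mean log2 signal of the a transcript was 9.86. Over all transcripts above background, the median SD was 0.051 at mean log2 signals of 14 to 15 and 0.15 at 11 to 12. It was not computed for lower signals, and the part of low signal in the spread of the a transcript was not tested. Which exons the probes of each transcript cover is unknown here, so levels of transcripts were not set against each other.

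All 4 genes of complex II, the succinate dehydrogenase, were above background. The flavoprotein gene sdha-1 (C03G5.1) had signals of 10164, 9683, 9525 and 9997 on arrays 1 to 4. It was highest on array 1, and was the only one of the 55 member transcripts above background of which that was true. The iron-sulfur subunit gene sdhb-1 (F42A8.2) lay 6.17 ± 0.16 log2 above background (SD, n = 4). The membrane subunit gene mev-1 (T07C4.7) had signals of 14524, 15427, 14751 and 15486. They spanned a 1.07-fold range, with the lowest value on array 1. The other membrane subunit gene, sdhd-1, lay 5.43 log2 above background. SDs over the complex were 0.031 to 0.046.

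Complex III, the cytochrome c reductase, had 5 genes with 6 transcripts, all above background. The Rieske iron-sulfur protein gene isp-1 (F42G8.12) had signals of 18840, 18673, 19263 and 18978 on arrays 1 to 4, a 1.03-fold range. The cytochrome c1 gene cyc-1 (C54G4.8) had signals of 14615, 15024, 14635 and 14963, also a 1.03-fold range. Both belonged to the 5 member transcripts above background with the smallest SD, at 0.019 and 0.021. The core protein gene ucr-1 lay 6.05 log2 above background. Of the genes for the other core protein, ucr-2.1 had signals of 21508, 21678, 22567 and 21725 for its a transcript and of 15806, 16235, 16356 and 16121 for its b transcript. Both were lowest on array 1 and highest on array 3, with SDs of 0.031 and 0.021. The gene ucr-2.2 had an SD of 0.095. The ucr-2.2 signals were 11803, 11703, 13465 and 12629, high on array 3 and low on arrays 1 and 2.

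The pair of cytochrome c genes lay on opposite sides of the background. The gene cyc-2.1 (E04A4.7) had signals of 21999, 22953, 21545 and 22512 on arrays 1 to 4. They were nearly level, and cyc-2.1 lay 6.12 ± 0.16 log2 above background (SD, n = 4, limma adjusted p = 3.22e-10). The gene cyc-2.2 (ZC116.2) had signals of 223, 291, 281 and 237. It was lowest on array 1 and highest on array 2, and lay at -0.32 ± 0.19 (SD, n = 4, limma adjusted p = 0.0162), so it was called below background. This call was lost without array 4 (-0.23, limma adjusted p = 0.0924). It turned with a lower background, since cyc-2.2 was called above the 75th percentile of the chemoreceptors at 0.52 (limma adjusted p = 0.00159) and above the 25th percentile of all transcripts at 0.39 (limma adjusted p = 0.00555). Its probes were not seen above background on these arrays, so whether they can report this RNA was not checked here.

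Complex IV, the cytochrome c oxidase, had 4 genes, all above background. The subunit gene cox-4 (W09C5.8) had signals of 22696, 22824, 22902 and 22303 on arrays 1 to 4. Its SD of 0.017 was the smallest among the member transcripts above background. The subunit gene cox-5B (F26E4.9) had signals of 17979, 19591, 19175 and 18880, lowest on array 1. The genes cox-5A and cox-6A lay 6.48 and 5.84 log2 above background, with SDs of the log2 signal of 0.030 and 0.039. Over the 4 genes the median deviation on array 1 was -0.0045.

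Complex V, the ATP synthase, had 8 genes with 12 transcripts, and all 12 were above background. The catalytic beta subunit gene atp-2 (C34E10.6) had signals of 38965, 41455, 41415 and 40466 on arrays 1 to 4. It was lowest on array 1, with a 1.06-fold range, and lay 6.99 ± 0.16 log2 above background (SD, n = 4, limma adjusted p = 3.22e-10). The gene atp-3, for the subunit that joins the head to the peripheral stalk, lay 6.04 and 5.60 above background with its a and b transcripts. The stalk gene atp-4 (T05H4.12) had an SD of 0.017, with signals of 16015, 16334, 15930 and 15929. The stalk gene atp-5 lay 6.36 above background, and asg-2, for subunit g of the membrane part, 3.94.

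The alpha subunit gene atp-1 had 4 transcripts, of which 1 differed between arrays more than the others. Transcript H28O16.1a had signals of 35129, 43201, 43426 and 43572 on arrays 1 to 4. The value on array 1 was lower than the other 3, which were level, and the range was 1.24-fold. Transcripts H28O16.1b, H28O16.1c and H28O16.1d had signals on array 1 of 32697, 42122 and 42905. On arrays 2 to 4 their ranges were 33455 to 34521, 42384 to 44301 and 43139 to 44543. Their deviations on array 1 were -0.046, -0.023 and -0.028, against -0.23 for the a transcript.

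The spread of the members between arrays was small. The median SD of the log2 signal was 0.046 over the 55 member transcripts above background and 0.11 over all 12771 transcripts above background. Without array 1 these medians were 0.035 and 0.064. Of the 55, 31 had an SD under 0.05 and 5 an SD over 0.1, and the ratio of the highest to the lowest signal had a median of 1.07. The SD falls with signal on these arrays, and the member transcripts lay mostly at high signal. In the band of mean log2 signal from 13 to 14, the median SD was 0.047 for 25 members and 0.069 for all 2976 transcripts above background. From 14 to 15 it was 0.040 for 19 members and 0.051 for all 1246, and from 12 to 13 it was 0.059 for 5 members and 0.099 for all 2647. From 15 to 16 it was 0.036 for 5 members and 0.033 for all 78, so the order was turned in that band. In these 4 bands 37 of 54 members had an SD below the median of their band. These are descriptions of the arrays with no test.

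**Figure D2:**
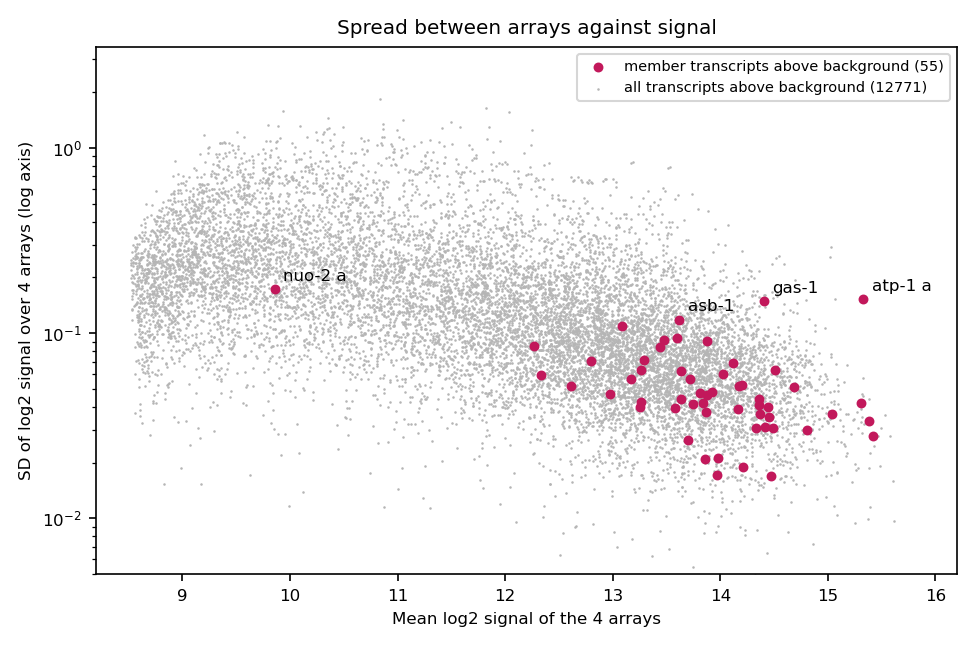
SD of the log2 signal over the 4 arrays (y axis, log scale) against the mean log2 signal (x axis) for the 55 member transcripts above background (large points) and for all 12771 transcripts above background (small points). Most members lie in the lower part of the cloud at high signal, while gas-1, atp-1 a and asb-1 have SDs of 0.15, 0.15 and 0.12. The SD of nuo-2 a is 0.17, at a lower mean log2 signal of 9.86.

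Most members were lowest on array 1. Of the 55 member transcripts above background, 37 (67.3%) were lowest on array 1, against 51.4% of all transcripts above background. Some of the 55 are transcripts of the same gene. Among the 37 member genes with 1 transcript, cyc-2.2 included, 22 (59.5%) were lowest on array 1, nearer the share of all. Of the 55, only sdha-1 (1.82%) was highest on array 1, against 30.3% of all. Highest values fell instead on array 2 for 20 members, array 3 for 16 and array 4 for 18. The shifts were small: the median deviation of the members on arrays 1 to 4 was -0.044, 0.020, 0.016 and 0.022 on the log2 scale, beside -0.047, 0.023, 0.0035 and 0.014 for all transcripts above background. The median shift of the members on array 1 was thus close to that of all transcripts, while the share of transcripts highest on that array was smaller among the members. This small share was not particular to the members. It was 3.45% for other subunits, 0% for assembly factors, 15.4% for coenzyme Q synthesis, 9.09% for the citric acid cycle and 0% for carriers and inhibitors. All transcripts were not matched to the members in signal. By complex, the median deviation on array 1 was -0.052 for complex I, -0.042 for complex II, -0.026 for complex III, -0.0045 for complex IV and -0.052 for complex V. In complex IV 1 of 4 transcripts was lowest on array 1. Of the cytochrome c genes, cyc-2.1 deviated by -0.016 there and cyc-2.2, which is not among the 55, by -0.20. Over arrays 2 to 4 alone, 24, 18 and 13 members were lowest on arrays 2, 3 and 4. These are 43.6%, 32.7% and 23.6% of the members, against 34.1%, 39.8% and 26.1% of all transcripts above background. Array 1 was also the array where muscle markers were highest and meiosis, oocyte, sperm and early zygotic markers lowest, and their part in these counts was not tested.

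**Figure D3:**
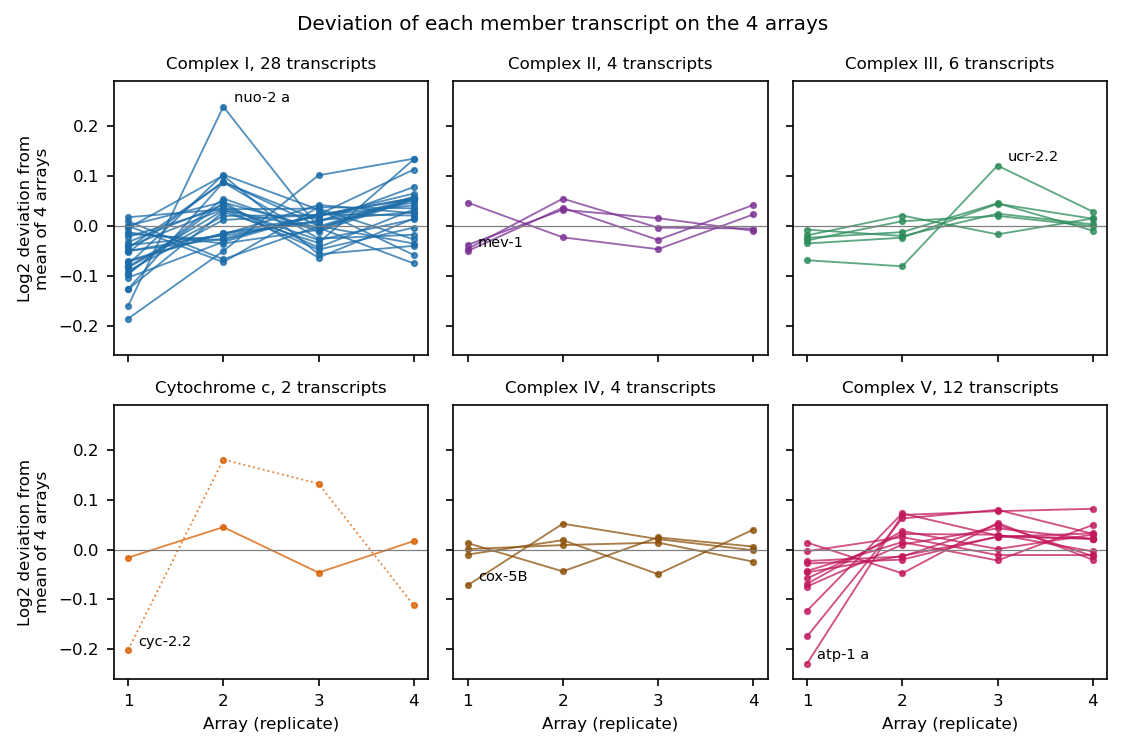
Log2 deviation of each member transcript from its mean over the 4 arrays (y axis), by array (x axis) and complex. Each line joins the values of 1 transcript, the arrays have no order, the dotted line is cyc-2.2, which is not above background, and the labelled line has the largest SD in its complex. Most lines lie within 0.1 of 0, and atp-1 a reaches -0.23 on array 1.

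The ATP synthase b subunit genes asb-1 and asb-2 differed in how they moved on array 1. In C. elegans, asb-1 is known as the copy used in the germline and asb-2 as its counterpart in other tissues. The gene asb-1 (F35G12.10), on chromosome III, had signals of 11154, 13144, 13303 and 12867 on arrays 1 to 4. Its value on array 1 was lower than the other 3, and it lay 5.30 ± 0.12 log2 above background (SD, n = 4, limma adjusted p = 3.22e-10). The gene asb-2 (F02E8.1), on the X chromosome, had signals of 21195, 20307, 21787 and 20693. These had no low value on array 1, and asb-2 lay 6.04 ± 0.21 above background (SD, n = 4, limma adjusted p = 3.22e-10). The SD of the log2 signal itself, without the background, was 0.12 for asb-1 and 0.044 for asb-2. The deviation on array 1 was -0.17 for asb-1 and 0.014 for asb-2. The difference of asb-1 minus asb-2 within an array varied over a range of 0.30 on the log2 scale, a 1.23-fold change, and over 0.084 without array 1. Meiosis markers deviated by -0.34 on the same array, and their part in the difference was not tested.

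Other subunits with gene copies were set side by side in the same way, each with 1 copy that is not a member. The succinate dehydrogenase copy sdha-2, on chromosome I, had signals of 10213, 12459, 12691 and 12515 on arrays 1 to 4. It was low on array 1, where it deviated by -0.22, while sdha-1, on the X chromosome, deviated by 0.047. The difference of sdha-2 minus sdha-1 varied over 0.41 on the log2 scale, and over 0.090 without array 1. The core protein copy ucr-2.3, on chromosome III, had signals of 13039, 14646, 15038 and 14393, low on array 1. It deviated by -0.13 on array 1, against -0.026 for ucr-2.1 (mean of its transcripts) and -0.069 for ucr-2.2, both on the X chromosome. The gas-1 copy nduf-2.2, on chromosome III, had signals of 6483, 7536, 7386 and 7747, also low on array 1. It deviated by -0.17 on array 1, and here gas-1 on the X chromosome deviated by -0.19 as well. All copies named here were above background. Of the X-linked members, asg-2 was low on array 1 too, at -0.12. Not all differences shrank without array 1. With and without it, ucr-2.1 minus ucr-2.2 varied over 0.17 and nduf-2.2 minus gas-1 over 0.18. The difference of cyc-2.1 minus cyc-2.2 varied over 0.36, and over 0.31 without array 1. Unlike the copies above, cyc-2.2 was called below background. None of these patterns was tested. Probe sequences were not used here, so signal shared between close copies cannot be split.

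**Figure D4:**
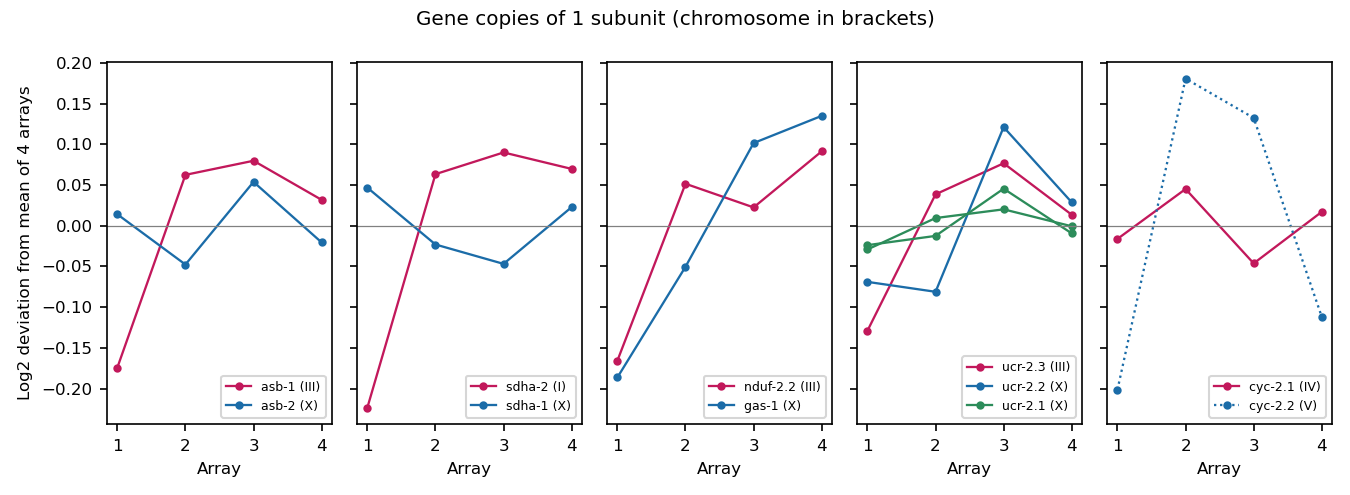
Log2 deviation from the mean over the 4 arrays (y axis) by array (x axis) for the gene copies of 5 subunits, with the chromosome in brackets. Each line joins the values of 1 transcript, the arrays have no order, and the dotted line is not above background. On array 1, asb-1 and sdha-2 lie at -0.17 and -0.22, while asb-2 and sdha-1 lie at 0.014 and 0.047.

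The members are spread over all chromosomes, with 12 genes on chromosome I, 7 on II, 11 on III, 4 on IV, 5 on V and 6 on X. All members on chromosomes I, II, III and IV were above background, against 67.0%, 55.5%, 68.5% and 51.8% of all named genes of these chromosomes. On chromosome V 4 of 5 were above background, cyc-2.2 being the exception, against 33.5% of all named genes of that chromosome. The 6 members on the X chromosome, gas-1, sdha-1, ucr-2.1, ucr-2.2, asb-2 and asg-2, were all above background, against 49.5% of all named genes of the X chromosome. Median SDs by chromosome were between 0.041 and 0.056.

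Genes that work beside the members were read from lists chosen by function. Among all named genes, 51.9% had a transcript above background. All 26 other nuclear-encoded subunits measured, with 29 transcripts, were above background, among them nduf-2.2 and nduf-7 at 4.51 and 5.20 log2. Their median SD was 0.048, and 82.8% of the transcripts were lowest on array 1, against 51.4% of all transcripts above background. All 11 measured assembly factor genes were above background. Among them the complex I factors nuaf-1 and nuaf-3 lay 3.77 and 2.89 log2 above it, the second for its a transcript. Their median SD was 0.13 and their median deviation on array 1 was -0.15. All 8 genes of coenzyme Q synthesis were above background, with clk-1 at 2.95 and coq-1 at 4.33. Of the 18 genes of the citric acid cycle and its entry step, 17 were above background, with the pyruvate dehydrogenase genes pdha-1 (transcript a) and pdhb-1 at 6.10 and 5.16. The isocitrate dehydrogenase gene idhg-2 lay at 0.038 and was not told apart from background (limma adjusted p = 0.686). Of the 7 genes for adenine nucleotide carriers, ATPase inhibitors and an uncoupling protein, 6 were above background. The carrier gene ant-1.1 lay 7.07 above background for its c transcript, and the carrier gene ant-1.2 lay at -1.11 and was below it (limma adjusted p = 5.09e-06). The 12 genes of the mitochondrial genome were not analysed here.

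**Figure D5:**
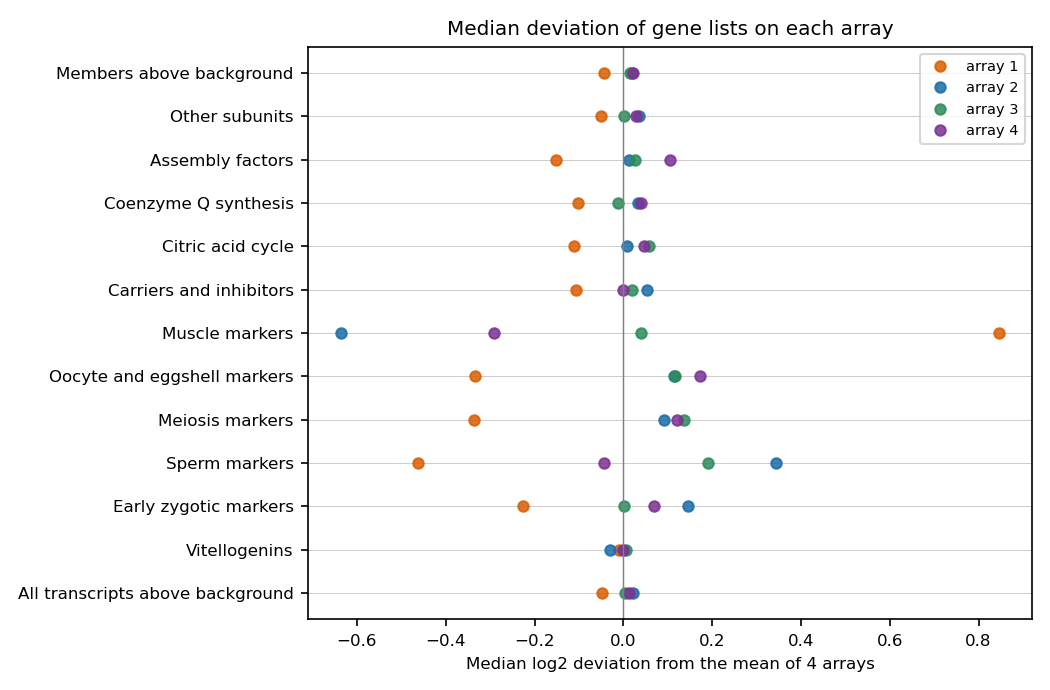
Median log2 deviation from the 4-array mean (x axis) for each gene list (y axis), with a point for each array. On array 1 the members lie at -0.044, assembly factors at -0.15, muscle markers at 0.85 and meiosis markers at -0.34, and all transcripts above background at -0.047.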

How the data were processed

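The deposited values are microarray intensity values on a linear scale, which the authors quantile normalized between arrays and averaged per transcript, as headers ("avg.norm") and file naming tell. Background correction, the number of probes averaged and the genome build are unknown here. Quantile normalization hides shifts shared by most transcripts. The series' value table was identical (largest difference 0).

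Names came from a RefSeq gene table (assembly WBcel235). Of 23181 transcripts, 17151 matched as written, 5352 without the isoform letter and 678 not at all. Log2 signal (after a floor of 1) minus the background, the 95th percentile of 1374 chemoreceptor transcripts (1343 genes), was fitted with limma 3.58.1 in R 4.3.3 as an intercept and tested against 0 on both sides. P-values were adjusted by Benjamini-Hochberg over 23181 transcripts, with 0.05 as threshold, and the script was checked on simulated data. Background was 8.09, 8.45, 8.26 and 8.48 on arrays 1 to 4, and its own error is not in the fit. Deviations and SDs are descriptions. Alternatives were other backgrounds, a filter on dim transcripts, other summaries and leaving out each array. The members and gene lists were chosen with earlier results of these data known. Per-array values are given for gene copies, members not above background, the 5 members each with the largest and smallest SD, and the best known subunits. Of the other pathway lists, but not of the marker lists, the first 2 measured genes and those called unlike the majority are named.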

Additional observations from a re-analysis of the deposited data

Results flagged for a closer look

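Each of the 56 member transcripts was examined for 1 array far from the other 3. The gap of an extreme log2 signal to its nearest neighbour, divided by the whole range, passed Dixon's critical value in 3 transcripts, where chance gives about 1 in 20. In atp-1 transcript H28O16.1a array 1 was low, with a ratio of 0.960 and a deviation of -0.23. In nuo-5 transcript Y45G12B.1c array 1 was low, with a ratio of 0.8297 and a deviation of -0.083. In atp-1 transcript H28O16.1c array 3 was high, with a ratio of 0.863 and a deviation of 0.050.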

How the results depend on the processing

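The counts of members above background were 55 transcripts and 44 genes with the 99th percentile of the chemoreceptors, with 1 background for all arrays, with dim transcripts left out and without any 1 replicate. They were 56 and 45 with the 75th percentile and with the 25th percentile of all transcripts, and 44 genes when all transcripts of a gene had to pass. Of 495 values of single transcripts other than cyc-2.2 under an alternative, 495 kept direction and call. These transcripts lay at least 1.54 log2 above background, so the alternatives could hardly change a call. With the 99th percentile the lowest of them, nuo-2 transcript T10E9.7a, was still at 0.62. For cyc-2.2 the value changed sign with the 75th percentile (0.52) and with the 25th percentile of all transcripts (0.39), by construction of a lower background, and its call was lost without replicate 4 (-0.23). Median deviations of the members moved by less than 0.046, their median SD, and their median SD moved by less than 1.5 times. The limit for the deviations is larger than each of them (-0.044, 0.020, 0.016 and 0.022 on arrays 1 to 4). It therefore cannot show that they are stable. With each replicate left out, the range of the difference between copies ran from 0.084 to 0.30 for asb-1 minus asb-2, 0.090 to 0.41 for sdha-2 minus sdha-1 and 0.025 to 0.15 for ucr-2.3 minus ucr-2.1, each lowest without replicate 1. It ran from 0.045 to 0.18 for ucr-2.3 minus ucr-2.2 and 0.0997 to 0.18 for nduf-2.2 minus gas-1, each lowest without replicate 2. The cause was not tested beyond the arrays named. No paired analysis was possible because the series holds 1 group. A dim or absent RNA cannot be told apart where signal lies at background.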

Other observations

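Further gene copies were looked at after their values were seen. In the citric acid cycle list, the succinyl-CoA ligase gene sucl-2, on chromosome III, deviated by -0.24 on array 1, while sucl-1, on the X chromosome, deviated by 0.044. The difference of sucl-2 minus sucl-1 varied over 0.42 on the log2 scale, and over 0.088 without array 1. For the oxoglutarate dehydrogenase genes, both on autosomes, ogdh-2 deviated by -0.11 on array 1 and ogdh-1 by -0.028.

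The adenine nucleotide carrier genes, which exchange the ATP made by the synthase for cytosolic ADP, moved by very different amounts between arrays. Signals of ant-1.4 were 1839, 7292, 4570 and 3877 on arrays 1 to 4, low on array 1 and high on array 2. Signals of ant-1.3 were 2881, 5578, 4539 and 4170, with the same lowest and highest arrays. Sperm markers deviated by -0.46, 0.34, 0.19 and -0.043 on these arrays, and their part was not tested. The 3 transcripts of ant-1.1 had SDs of 0.012 to 0.026. The ATPase inhibitor gene mai-1 had signals of 1958, 3387, 2138 and 3187, high on arrays 2 and 4, with an SD of 0.40, while mai-2 had an SD of 0.069.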
